A study of Homo sapiens with 12 samples.

Results

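ACO1, CP and HMOX1 are 3 genes of iron and haem handling. They were followed through every probe set annotated to them, which came to 1 for each gene, or 3 of 16376 probe sets and 3 of 8545 genes measured. The genes were chosen by their log2 levels and changes in these same groups, so their own values are given as a description, with no test. RNA came from SF539 and SNB19, 2 established glioblastoma cell lines. Each line was transfected by Lipofectamine RNAiMAX with PARK2 siRNA1, PARK2 siRNA2 or a scramble siRNA and was collected after 48 h. PARK2 encodes parkin, an enzyme that attaches ubiquitin to proteins of damaged mitochondria. There were 6 groups of 2 arrays, 12 in all, with no untransfected cells among them, and both siRNAs of a line were set against the same scramble arrays. Nothing in the labels ties the replicates of a group to separate cultures, so errors and p-values cover no more than the variation of these arrays, which may be technical. In bulk RNA, fewer cells of a kind and less RNA per cell cannot be told apart. The glial marker list averaged 5.24 to 5.53 on the SF539 arrays and 7.93 to 8.86 on the SNB19 arrays, and OLIG2 and AQP4, 2 of its 8 measured genes, lay under 4.02, the highest lower quartile of any array, on all 12 arrays. In SF539 the group means of GFAP (3.61 to 3.95), S100B (3.36 to 3.80) and FABP7 (3.18 to 3.91) lay under 4.02 as well. PARK2 itself was not analysed here, so the knockdown was not checked.

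ACO1 encodes the cytosolic aconitase, also called iron regulatory protein 1. With an iron-sulphur cluster the protein converts citrate to isocitrate, and without it the same protein binds iron-responsive elements in transcripts for ferritin, the transferrin receptor and other iron proteins. CP encodes ceruloplasmin, a copper-containing ferroxidase that oxidises iron as it leaves cells. It is secreted by liver as an acute-phase protein and is held on the surface of astrocytes by a lipid anchor. HMOX1 encodes haem oxygenase 1, the inducible enzyme that opens the haem ring and releases iron, carbon monoxide and biliverdin. Its gene is held down by the haem-binding repressor BACH1 and switched on by the stress factor NRF2.

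On GRCh38.p14, ACO1 lies on chromosome 9 (chr9:32384643-32454769), CP on chromosome 3 (chr3:149162414-149221829) and HMOX1 on chromosome 22 (chr22:35381096-35394207). The 250 bases before the start of ACO1 are shown, since no such sequence was matched by symbol for CP or HMOX1. They are from RefSeq (GRCh38.p14, chr9:32384393-32384642, plus strand), and capitals mark the GC box, GGGCGG or its complement on the other strand, a letter string bound by Sp1-type factors.
ACO1: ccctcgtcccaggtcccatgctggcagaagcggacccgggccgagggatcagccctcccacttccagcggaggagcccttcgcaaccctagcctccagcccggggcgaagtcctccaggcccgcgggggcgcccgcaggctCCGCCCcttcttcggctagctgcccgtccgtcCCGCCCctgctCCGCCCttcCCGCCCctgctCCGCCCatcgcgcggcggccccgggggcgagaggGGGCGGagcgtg
The stretch is 76.8% G and C, against a median of 58.0% over 35116 RefSeq windows of the same length. It holds 6 GC boxes, 1 on the plus strand and 5 on the other, and 42.6% of the windows hold at least 1. On either strand it holds 0 matches to TATAAA (present in 10.7% of windows) and to the antioxidant response element core TGACNNNGC (10.9%). Of the hypoxia response element core, the form ACGTG (18.5%) has 0 matches, while GCGTG, with which the stretch ends, was not counted. The stretch also holds 0 matches to the STAT site TTCNNNGAA (6.57%) and to the interferon-stimulated response element core (3.02%). A match, or the lack of one, describes these letters only.

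ACO1 was higher with both PARK2 siRNAs than with scramble in both lines, and the step was larger in SNB19. Values are log2 expression as deposited, so a difference of 1 is a doubling. In SNB19, ACO1 stood at 9.54 and 9.58 with siRNA1 and at 9.37 and 9.40 with siRNA2, against 6.66 and 6.48 with scramble. All 4 siRNA arrays lay above both scramble arrays, and the arrays of the siRNAs did not overlap each other either. The mean of both siRNAs exceeded scramble by 2.90 ± 0.08 on the log2 scale (SE of the limma fit, 2 arrays per group), which is 7.46-fold. Of 8545 genes, 6 had a larger rise in that comparison. For siRNA1 alone the difference was 2.99 ± 0.09 and for siRNA2 alone 2.81 ± 0.09.

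In SF539, ACO1 stood at 8.79 and 8.93 with siRNA1 and at 9.02 and 9.05 with siRNA2, against 8.04 and 8.02 with scramble. Again every siRNA array was above both scramble arrays. The mean of both siRNAs exceeded scramble by 0.92 ± 0.08, or 1.89-fold, and the separate differences were 0.83 ± 0.09 for siRNA1 and 1.00 ± 0.09 for siRNA2. The change in SF539 minus that in SNB19 was -1.98 ± 0.11. The lines started apart, with SF539 1.46 ± 0.09 above SNB19 with scramble, and ended in the other order. With PARK2 siRNAs the SF539 arrays lay between 8.79 and 9.05 and the SNB19 arrays between 9.37 and 9.58. From low to high the group means ran SNB19 scramble, SF539 scramble, SF539 siRNA1, SF539 siRNA2, SNB19 siRNA2 and SNB19 siRNA1, with no overlap between neighbours in that order, and the steps between the siRNAs of a line were 0.17 in SF539 and 0.17 in SNB19.

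**Figure D1:**
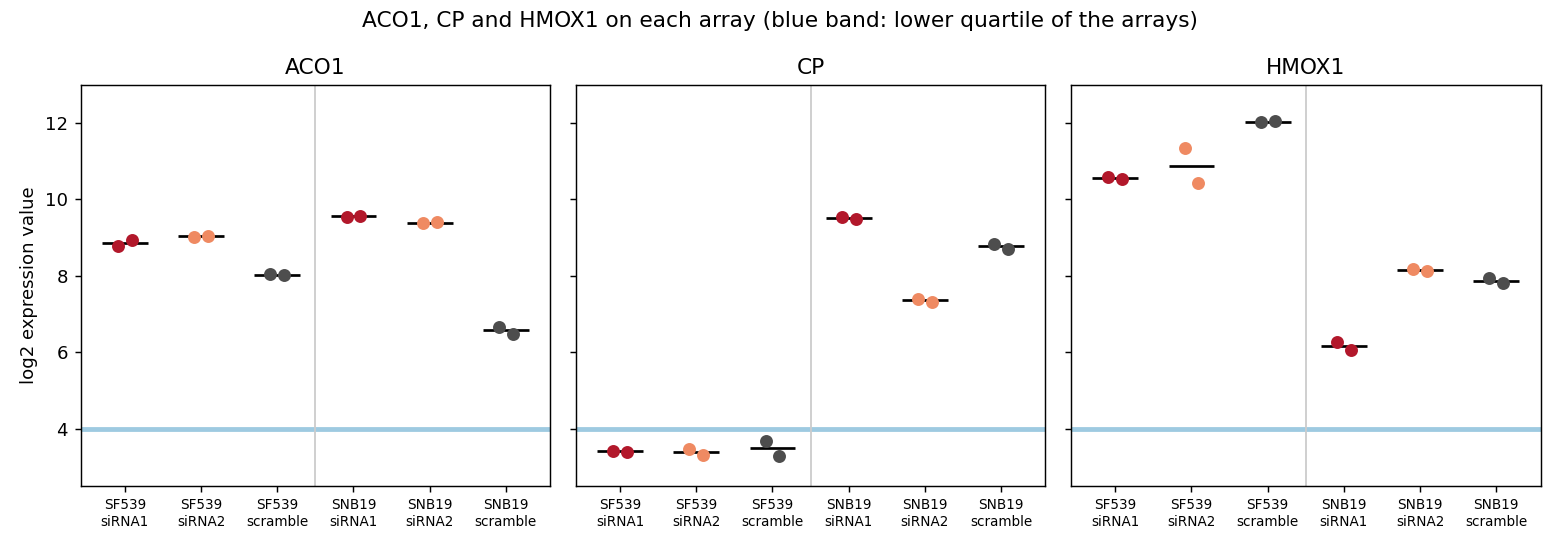
Log2 expression of ACO1, CP and HMOX1 (vertical axes) on every array of the 6 groups, 2 points per group with a line at their mean and a blue band over the lower quartiles of the 12 arrays, 3.93 to 4.02. ACO1 is above scramble in all siRNA groups, CP in SF539 lies under the band, and HMOX1 in SF539 is above all SNB19 arrays.

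CP was measured well above the dim part of the array only in SNB19, where the siRNAs moved it in opposite directions. It stood at 9.55 and 9.49 with siRNA1 and at 7.40 and 7.32 with siRNA2, against 8.84 and 8.71 with scramble. The 3 groups did not overlap, with scramble in the middle. Against scramble, CP differed by 0.75 ± 0.12 with siRNA1, or 1.68-fold higher, and by -1.41 ± 0.12 with siRNA2, or 2.66-fold lower. The siRNA2 level minus the siRNA1 level was -2.16 ± 0.12, and 2 of 8545 genes had a more negative value there. The mean of both siRNAs, -0.33 ± 0.11 against scramble, therefore describes neither of them.

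In SF539 the CP probe set read 3.42 and 3.38 with siRNA1 and 3.45 and 3.31 with siRNA2, against 3.67 and 3.29 with scramble. These 6 values overlap and all lie under the lower quartile of the arrays, so any change there was not detectable. With scramble the SF539 level was 5.29 ± 0.12 below that of SNB19, a gap that the array's background bounds from below. Markers of hepatocytes, the main source of circulating ceruloplasmin, were checked in both lines: ALB, APOA1 and SERPINC1, 3 of the 6 measured, lay under 4.02 on all 12 arrays. APOH had group means between 3.83 and 3.91 and TTR between 5.68 and 6.04, while AMBP rose by 0.63 ± 0.10 in SNB19 (limma adjusted p = 0.00122). The mean level of the hepatocyte list was 4.19 to 4.25 with siRNA1 and 4.23 to 4.25 with siRNA2 in SNB19, against 4.07 to 4.16 with scramble, and its part in the CP result was not tested.

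HMOX1 was far higher in SF539 than in SNB19, and was lower than scramble in 3 of the 4 siRNA groups. In SF539 it stood at 10.60 and 10.54 with siRNA1 and at 11.36 and 10.42 with siRNA2, against 12.03 and 12.04 with scramble. All 4 siRNA arrays were below both scramble arrays, while the siRNA groups overlapped, and the siRNA2 replicates had an SD of 0.66. The mean of both siRNAs was 1.31 ± 0.20 on the log2 scale below scramble (a change of -1.31), or 2.47-fold lower, and 18 of 8545 genes had a larger fall. The change was -1.47 ± 0.23 with siRNA1 and -1.15 ± 0.23 with siRNA2. The difference of siRNA2 minus siRNA1, 0.32 ± 0.23, turned with 1 array, being -0.15 without siRNA2 replicate 1 and 0.78 without siRNA2 replicate 2. The mean change was -1.54 without siRNA2 replicate 1 and -1.07 without siRNA2 replicate 2. With neither, what remains is the siRNA1 change of -1.47.

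In SNB19 the HMOX1 probe set read 6.28 and 6.05 with siRNA1 and 8.18 and 8.14 with siRNA2, against 7.94 and 7.81 with scramble. The siRNA1 arrays lay below all others, and both siRNA2 arrays lay above both scramble arrays. Against scramble the changes were -1.71 ± 0.23 with siRNA1, or 3.28-fold lower, and 0.28 ± 0.23 with siRNA2. The SE pools the spread of all 6 groups, with an SD of 0.66 for SF539 siRNA2 and of 0.03 to 0.16 in SNB19. The small siRNA2 step was not tested. The siRNA2 level minus the siRNA1 level was 1.99 ± 0.23, and 3 of 8545 genes had a larger value. CP and HMOX1 thus stood in opposite order between the siRNAs of SNB19, CP higher with siRNA1 and HMOX1 higher with siRNA2. With siRNA1 the HMOX1 change in SF539 minus that in SNB19 was 0.25 ± 0.33, and with siRNA2 it was -1.43 ± 0.33. With scramble SF539 exceeded SNB19 by 4.16 ± 0.23, or 17.9-fold. Macrophages are rich in HMOX1, and 2 of the 7 measured markers of monocytes and macrophages, PTPRC and TYROBP, lay under 4.02 on all arrays, with list means between 4.13 and 4.34 over the 12 arrays. CD14 and CD163 had group means between 3.67 and 4.01, AIF1 and ITGAM between 4.92 and 5.35. CSF1R rose in SF539, where HMOX1 was lower, by 0.56 ± 0.08 (limma adjusted p = 0.0031), and the part of these markers in the HMOX1 result was not tested.

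**Figure D2:**
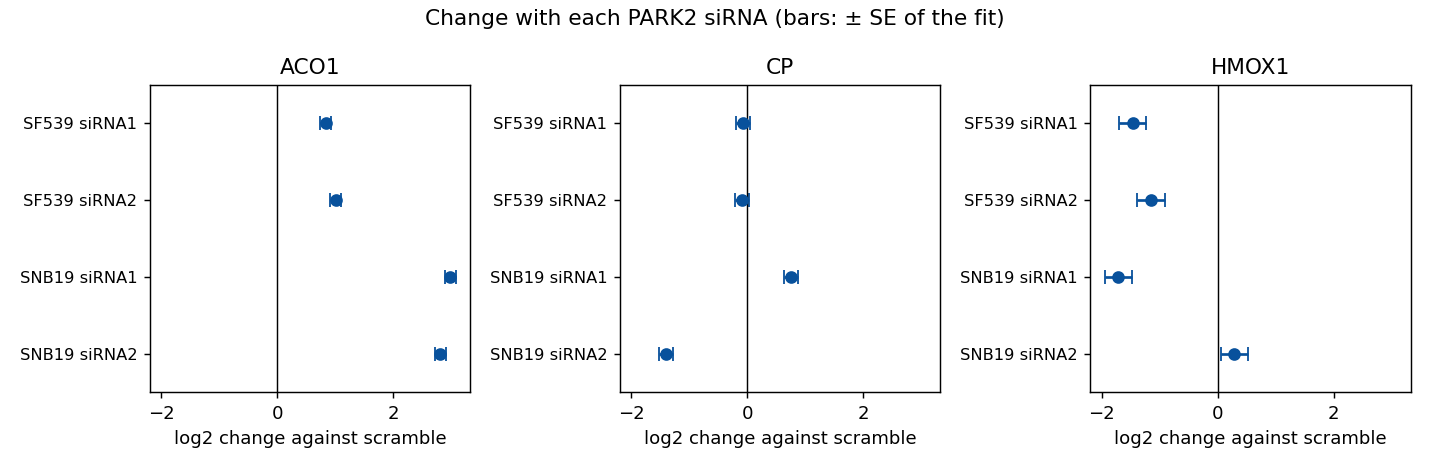
Log2 change of ACO1, CP and HMOX1 against scramble (horizontal axes) for each PARK2 siRNA in each line, as points with the standard error of the fit. ACO1 lies right of 0 in all 4 cases, from 0.83 to 2.99, CP lies on both sides of 0 in SNB19, and HMOX1 lies left of 0 except with siRNA2 in SNB19.

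The genes whose levels over the 12 arrays ran most like those of each gene were taken by Pearson correlation across all 8545 genes. Since the lines form separate clusters, values are given within each line, over 6 arrays, as a description. For ACO1 they were HSD17B4, HNRNPA3, CBX5, USP7 and RPL3, with r from 0.82 to 0.96 in SF539 and from 0.99 to 1.00 in SNB19. The heterochromatin protein gene CBX5 averaged 8.83 with siRNA1 and 8.59 with siRNA2 in SNB19, against 6.70 with scramble. For HMOX1 they were the chemokine gene CXCL8, IMPA1, the chaperone gene HSPH1, SPAG1 and PPP3CC, with r from 0.84 to 0.94 in SF539 and from 0.90 to 0.95 in SNB19. CXCL8 averaged 10.10 with siRNA1 and 9.76 with siRNA2 in SF539, against 11.48 with scramble. For CP they were PCSK5, PAPSS2, KRT15, BTBD3 and MKRN1, with r from 0.02 to 0.54 in SF539, where CP was near background, and from 0.81 to 0.95 in SNB19. PAPSS2, which makes the sulphate donor of proteoglycans, averaged 7.64 with siRNA1 and 6.18 with siRNA2 in SNB19, against 7.83 with scramble.

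The rest of the pathway was read from 11 lists, which hold 158 genes without these 3, of which 103 were measured. In SNB19, 14 of the 103 were higher and 20 lower with both PARK2 siRNAs than with scramble (limma, adjusted p under 0.05 over all genes), 33.0% against 32.8% of all genes (15.5% higher and 17.4% lower), a share near the background. Their median change was -0.04, against -0.01 over all genes. In SF539, 12 were higher and 4 lower, 15.5% against 9.82% of all genes (5.8% higher and 4.01% lower), with a median of -0.02 for the lists and -0.02 for all genes. The SNB19 count of 34 was 22 without SNB19 scramble replicate 2. The SF539 count of 16 was 9 and 8 without scramble replicates 1 and 2, 10 without siRNA1 replicate 2, 35 and 31 without siRNA2 replicates 1 and 2, 20 with both siRNA2 arrays left out and 5 with the SF539 arrays alone, where ABCB6, ABCC1, ATP7A, BMP2, FECH, IDH3A, ISCU, MAFF, ME1, NEO1 and NQO1 lost their calls. The count of 20 is for siRNA1 against scramble, the comparison left without siRNA2, and that count was 6 with all arrays. Against the same scramble arrays, single siRNAs gave calls for 2.73% of all genes with siRNA1 and 15.2% with siRNA2 in SF539, and for 26.1% with siRNA1 and 29.7% with siRNA2 in SNB19.

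**Figure D3:**
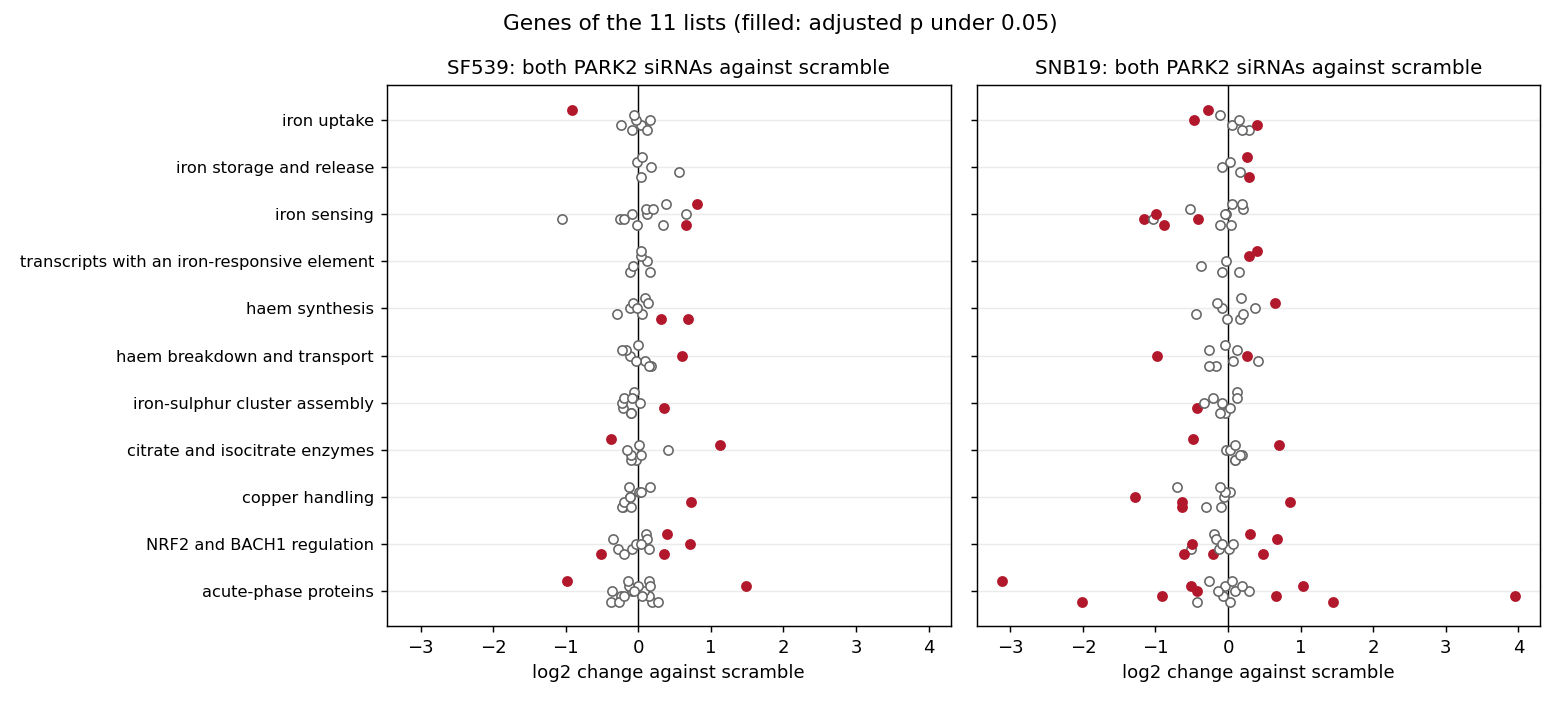
Log2 change with both PARK2 siRNAs against scramble (horizontal axes) for the measured genes of the 11 lists (rows) in SF539 and SNB19, 1 point per gene, filled where the adjusted p is under 0.05. Most genes lie near 0. The widest spread is that of the acute-phase proteins in SNB19, from -3.11 for CFB to 3.95 for SERPINA3. The mean CFB levels with siRNAs there lay under the lower quartile.

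Of 8 measured iron uptake genes 1 rose and 2 fell in SNB19, 37.5% against 32.8% of all genes, and 1 fell in SF539, 12.5% against 9.82%. The metal importer genes SLC11A2 and SLC39A14 changed by 0.40 ± 0.11 (limma adjusted p = 0.0155) and -0.47 ± 0.10 (limma adjusted p = 0.00412) in SNB19, the second by -0.75 ± 0.11 with siRNA1 and -0.18 ± 0.11 with siRNA2. STEAP1, of a family of metal reductases, fell by 0.91 ± 0.08 in SF539 (limma adjusted p = 0.000272). In SNB19 its mean change of -0.28 ± 0.08 (limma adjusted p = 0.0257) describes neither siRNA, being -0.67 ± 0.09 with siRNA1 and 0.11 ± 0.09 with siRNA2 (limma adjusted p = 0.000568 and 0.419). The SLC11A2 call was lost without either SNB19 scramble array or with its probe sets averaged, and the SNB19 call of STEAP1 with quantile normalization, with median centring or without any SNB19 array other than siRNA2 replicate 2. The transferrin receptor gene TFRC, a classic target of iron regulatory proteins, changed by 0.16 ± 0.08 in SF539 (limma adjusted p = 0.242) and by 0.16 ± 0.08 in SNB19 (limma adjusted p = 0.159).

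Of 5 measured storage and release genes 2 rose in SNB19 and none fell, 40% against 32.8% of all genes, and 0 were called in SF539 with limma, where 1 reached an unadjusted p under 0.05. The ferritin light chain gene FTL rose by 0.28 ± 0.06 in SNB19 (limma adjusted p = 0.00664). It averaged 13.67 ± 0.04 with siRNA1 and 13.91 ± 0.03 with siRNA2, against 13.50 ± 0.01 with scramble (SD, n = 2 each). PCBP2, which encodes an iron chaperone, rose by 0.26 ± 0.08. The call of FTL was lost without SNB19 scramble replicate 2 (limma adjusted p = 0.0516), and that of PCBP2 without scramble replicate 2, any siRNA array of SNB19 or either siRNA1 array of SF539, and with quantile normalization or the mean of its probe sets. HEPH, the membrane ferroxidase gene related to CP, changed by 0.56 ± 0.21 in SF539 (limma adjusted p = 0.129) and by 0.17 ± 0.21 in SNB19 (limma adjusted p = 0.601). FTH1, SLC40A1, IREB2 and HMOX2 were not analysed here. Of 6 measured transcripts with an iron-responsive element, FTL and SLC11A2 rose in SNB19, 33.3% against 32.8% of all genes. In SF539, 0 of them were called with limma, and 0 reached an unadjusted p under 0.05.

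Among 13 measured genes of iron sensing, 4 fell in SNB19, 30.8% against 32.8% of all genes, and 2 rose in SF539, 15.4% against 9.82%. BMP6, the ligand through which iron induces hepcidin in liver, fell by 1.15 ± 0.10 in SNB19 (limma adjusted p = 2.1e-05), and the feedback inhibitor gene SMAD7 fell by 0.41 ± 0.08 (limma adjusted p = 0.00271). Both ID2 and SMAD6, with changes of -0.99 ± 0.31 and -0.89 ± 0.29, lost their calls without any 1 SNB19 array, and SMAD6 also without any scramble or siRNA1 array of SF539, with a trended robust prior, with median centring and with its probe sets averaged. In SF539 the co-receptor gene NEO1 rose by 0.81 ± 0.15 (limma adjusted p = 0.00955). BMP2 was called there too, but averaged 3.76 with siRNA1 and 4.42 with siRNA2, against 3.44 with scramble, so that siRNA1 and scramble lay under the lower quartile and the size of its change is not given by the array. Both calls were lost without scramble replicate 2. FBXL5, whose protein removes iron regulatory protein 2 when iron is plentiful, changed by 0.11 ± 0.11 in SF539 and 0.21 ± 0.11 in SNB19 (limma adjusted p = 0.597 and 0.182).

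Of 9 measured haem synthesis genes 1 rose in SNB19, 11.1% against 32.8% of all genes, and 2 rose in SF539, 22.2% against 9.82%. In SNB19 it was UROS, the uroporphyrinogen III synthase gene, by 0.65 ± 0.11 (limma adjusted p = 0.00121). In SF539 they were the porphyrin transporter gene ABCB6, by 0.68 ± 0.10 (limma adjusted p = 0.00377, and 0.0591 with the SF539 arrays alone), and the ferrochelatase gene FECH, by 0.32 ± 0.09, whose call was lost when any single array was left out, the siRNA2 arrays of SF539 excepted. Of 9 measured genes of haem breakdown and transport, BLVRB and PGRMC2 were called in SNB19, 22.2% against 32.8% of all genes. In SF539 PGRMC2 was called, 11.1% against 9.82% of all genes. BLVRB, a biliverdin reductase gene that acts after haem oxygenase, fell by 0.98 ± 0.09 in SNB19 (limma adjusted p = 2.42e-05). It averaged 9.63 ± 0.05 with siRNA1 and 9.84 ± 0.17 with siRNA2, against 10.71 ± 0.01 with scramble (SD, n = 2 each). It was thus lower with both siRNAs, whereas HMOX1 was lower with siRNA1 alone. BLVRA, the other biliverdin reductase gene, changed by 0.09 ± 0.08 in SF539 and 0.07 ± 0.08 in SNB19 (limma adjusted p = 0.532 and 0.569). PGRMC2, a haem-binding membrane protein gene, rose by 0.60 ± 0.07 in SF539 and by 0.26 ± 0.07 in SNB19, the SNB19 call being lost without SNB19 scramble replicate 1.

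Genes of iron-sulphur clusters and of citrate handling bear on the enzyme form of ACO1. Of 9 measured assembly genes, CIAPIN1 fell by 0.42 ± 0.09 in SNB19 and the scaffold gene ISCU rose by 0.35 ± 0.07 in SF539. Each call is 11.1% of the list, against 32.8% of all genes in SNB19 and 9.82% in SF539. The call of CIAPIN1 was lost without SNB19 scramble replicate 1, and that of ISCU without SF539 scramble replicate 1 or siRNA1 replicate 2. Of 9 measured citrate and isocitrate enzymes, the same pair was called in both lines. The pair is 22.2% of the list, against 32.8% of all genes in SNB19 and 9.82% in SF539. IDH2, the mitochondrial enzyme that uses isocitrate, rose by 1.13 ± 0.11 in SF539 (limma adjusted p = 0.000346) and by 0.70 ± 0.11 in SNB19 (limma adjusted p = 0.000721). IDH3A fell by 0.38 ± 0.09 in SF539 and by 0.49 ± 0.09 in SNB19, and its SF539 call was lost without any 1 scramble or siRNA1 array of SF539.

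Copper genes were included because ceruloplasmin carries copper. Of 11 measured, 1 rose and 3 fell in SNB19, 36.4% against 32.8% of all genes, and 1 rose in SF539, 9.09% against 9.82%. ATP7A, the copper pump gene that loads secreted copper enzymes, rose by 0.73 ± 0.11 in SF539 (limma adjusted p = 0.00381), where it changed by 0.32 ± 0.13 with siRNA1 and 1.13 ± 0.13 with siRNA2, and by 0.86 ± 0.11 in SNB19 (limma adjusted p = 0.000263). The cytochrome oxidase assembly gene SCO2 fell by 1.28 ± 0.08 in SNB19 (limma adjusted p = 2.3e-06). The metallothionein genes MT2A and MT1X fell by 0.63 ± 0.08 and 0.63 ± 0.09, and near-identical relatives can share their probes. The call of MT1X was lost with its probe sets averaged (limma adjusted p = 0.105), and that of ATP7A in SF539 with the SF539 arrays alone (limma adjusted p = 0.0578).

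The genes of the main regulators of HMOX1, NFE2L2 and BACH1, were not called for the mean of both siRNAs. NFE2L2, the gene of NRF2, changed by 0.12 ± 0.09 in SF539 and by -0.17 ± 0.09 in SNB19 (limma adjusted p = 0.43 and 0.18), and BACH1 by -0.09 ± 0.18 in SF539 and by -0.51 ± 0.18 in SNB19 (limma adjusted p = 0.819 and 0.0606). In SNB19, BACH1 changed by -0.21 ± 0.21 with siRNA1 and fell by 0.80 ± 0.21 with siRNA2 (limma adjusted p = 0.528 and 0.0176). Of 13 measured genes of the NRF2 and BACH1 list 3 rose and 3 fell in SNB19, 46.2% against 32.8% of all genes. There the genes of the glutathione-making enzyme went apart, its modifier subunit GCLM by 0.68 ± 0.11 and its catalytic subunit GCLC by -0.50 ± 0.06 (limma adjusted p = 0.00118 and 0.000204). PGD rose by 0.49 ± 0.10 and MAFF, the gene of a small partner protein of NRF2 and BACH1, fell by 0.61 ± 0.13, and the PGD call was lost without SNB19 scramble replicate 2. In SF539, 3 rose and 1 fell, 30.8% against 9.82% of all genes. The quinone reductase gene NQO1 rose by 0.39 ± 0.07, the export pump gene ABCC1 by 0.36 ± 0.07 (0.13 ± 0.08 with siRNA1 and 0.58 ± 0.08 with siRNA2) and the malic enzyme gene ME1 by 0.71 ± 0.15, while MAFF changed by -0.52 ± 0.13. Those calls were lost without scramble replicate 2 or with the mean of probe sets for NQO1, without scramble replicate 1, scramble replicate 2 or siRNA1 replicate 2 for ABCC1, without scramble replicate 1 or siRNA1 replicate 2 or with array weights for ME1, and without any scramble or siRNA1 array of SF539 or any scramble or siRNA2 array of SNB19 for MAFF.

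CP belongs to the acute-phase proteins. Of 19 others measured, 4 rose and 5 fell in SNB19, 47.4% against 32.8% of all genes, and 1 rose and 1 fell in SF539, 10.5% against 9.82%. In SNB19 the protease inhibitor genes SERPINA3 and SERPINA1 rose by 3.95 ± 0.13 and 1.45 ± 0.12, the complement gene CFB fell by 3.11 ± 0.19, to means of 3.90 with siRNA1 and 3.82 with siRNA2 that lie under the lower quartile and make the fall a lower limit, and the interleukin 6 receptor subunit gene IL6ST rose by 0.67 ± 0.07 (limma adjusted p from 1.34e-08 to 6.28e-05). The call of IL6ST was lost with the mean of its probe sets (limma adjusted p = 0.213). In SF539 the transcription factor gene CEBPD rose by 1.48 ± 0.10 (limma adjusted p = 9.23e-05), and CFB fell by 0.98 ± 0.19, a call lost without either scramble array. Beside these genes, and beside ACO1, the mean level of the 8 glial markers differed in SNB19, where it was 8.55 to 8.58 with siRNA1 and 8.80 to 8.86 with siRNA2, against 7.93 to 8.05 with scramble. GFAP, FABP7 and S100B rose, by 3.58 ± 0.16, 1.33 ± 0.17 and 1.00 ± 0.15, SOX2 fell by 0.41 ± 0.14 (limma adjusted p = 0.0457), and SLC1A3 changed by -0.27 ± 0.28 (limma adjusted p = 0.524). That SLC1A3 mean describes neither siRNA, with averages of 8.80 for siRNA1 and 9.89 for siRNA2, against 9.62 with scramble. The part of these markers in the results was not tested.

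Between the siRNAs, 5 of the 103 listed genes were higher and 7 lower with siRNA2 than with siRNA1 in SNB19, 11.7% against 6.06% of all genes (3.08% higher and 2.98% lower). CEBPD and the collagen crosslinking enzyme gene LOX were lower with siRNA2, by changes of -1.03 ± 0.11 and -1.49 ± 0.29, as was CP. STEAP1 and the cystine transporter gene SLC7A11 were higher, by 0.78 ± 0.09 and 0.66 ± 0.11, as was HMOX1. The calls of LOX and SLC7A11 were lost without any 1 siRNA array of SNB19. The count of 12 was 23 without either SF539 siRNA2 array, 7 without either scramble array of SNB19 or either siRNA1 array of SF539, 3 without either SNB19 siRNA1 array and 2 without either SNB19 siRNA2 array. In SF539, 4 listed genes were higher and 1 lower with siRNA2, 4.85% against 2.72% of all genes (1.84% higher and 0.878% lower). CEBPD was again called, there with a higher level, by 1.02 ± 0.11 (limma adjusted p = 0.00497), a call lost without SF539 siRNA1 replicate 1. That count of 5 was 47 without siRNA2 replicate 1, 0 and 2 without siRNA1 replicates 1 and 2 (23 reached an unadjusted p under 0.05 in limma where it was 0) and 3 without any 1 scramble or siRNA1 array of SNB19.

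With scramble, 30 of the 103 listed genes were higher and 26 lower in SF539 than in SNB19, 54.4% against 49.3% of all genes (24.6% higher and 24.7% lower). The change with PARK2 siRNAs differed between the lines for 21 listed genes, 14 with a positive and 7 with a negative value of SF539 minus SNB19, 20.4% against 19.1% of all genes (10.8% positive and 8.3% negative). With scramble, the NADP-linked malic enzyme gene ME1 and STEAP1 were higher in SF539 by 5.62 ± 0.17 and 4.04 ± 0.09, beside HMOX1. ME1 averaged 4.13 in SNB19 with scramble, near 4.02, the highest lower quartile, so background limits the size of its gap. IL6, an inducer of acute-phase proteins, was higher in SF539 by 3.48 ± 0.18, while CP was lower there. ABCB6 and PGRMC2 were lower, by changes of -1.86 ± 0.12 and -1.80 ± 0.08 (limma adjusted p = 7.89e-07 and 3.3e-08).

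Neighbouring genes were examined for changes shared with the locus, taking for each gene the 3 protein-coding genes with a probe set on either side. Of these 18, 4 rose and 1 fell in SNB19, 27.8% against 32.8% of all genes, and 2 rose and 1 fell in SF539, 16.7% against 9.82% of all genes. Beside ACO1, TOPORS changed by -0.07 ± 0.07 in SNB19, and the chaperone gene DNAJA1 fell by 0.75 ± 0.07 (limma adjusted p = 4.07e-05). NDUFB6 rose by 0.22 ± 0.08 there (limma adjusted p = 0.0482), a call lost under 12 alternatives. TEK changed by 0.19 ± 0.12 there but lay under 4.02, the highest lower quartile of any array, on all 12 arrays. ELAVL2 and TM4SF4 had group means from 2.47 to 2.67 and from 2.72 to 2.97. Changes of these dim genes were not detectable, and distances along the chromosome were not considered. Beside CP, the transcriptional co-activator gene WWTR1 rose by 0.59 ± 0.09 in SNB19, a call lost with the mean of its probe sets (limma adjusted p = 0.38). HLTF rose by 0.22 ± 0.06 in SNB19 and by 0.25 ± 0.06 in SF539, calls lost under 6 and 14 alternatives. TM4SF1 changed by -0.44 ± 0.10 in SF539, a call lost under 5 alternatives. Beside HMOX1, TOM1 changed by -0.03 ± 0.09 in SF539, and the protease inhibitor gene TIMP3 rose by 1.58 ± 0.17 there (limma adjusted p = 0.000583), with 0.77 ± 0.20 for siRNA1 and 2.40 ± 0.20 for siRNA2. MCM5, on the other side of HMOX1, rose by 0.47 ± 0.10 in SNB19, a call lost without SNB19 scramble replicate 2.

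**Figure D4:**
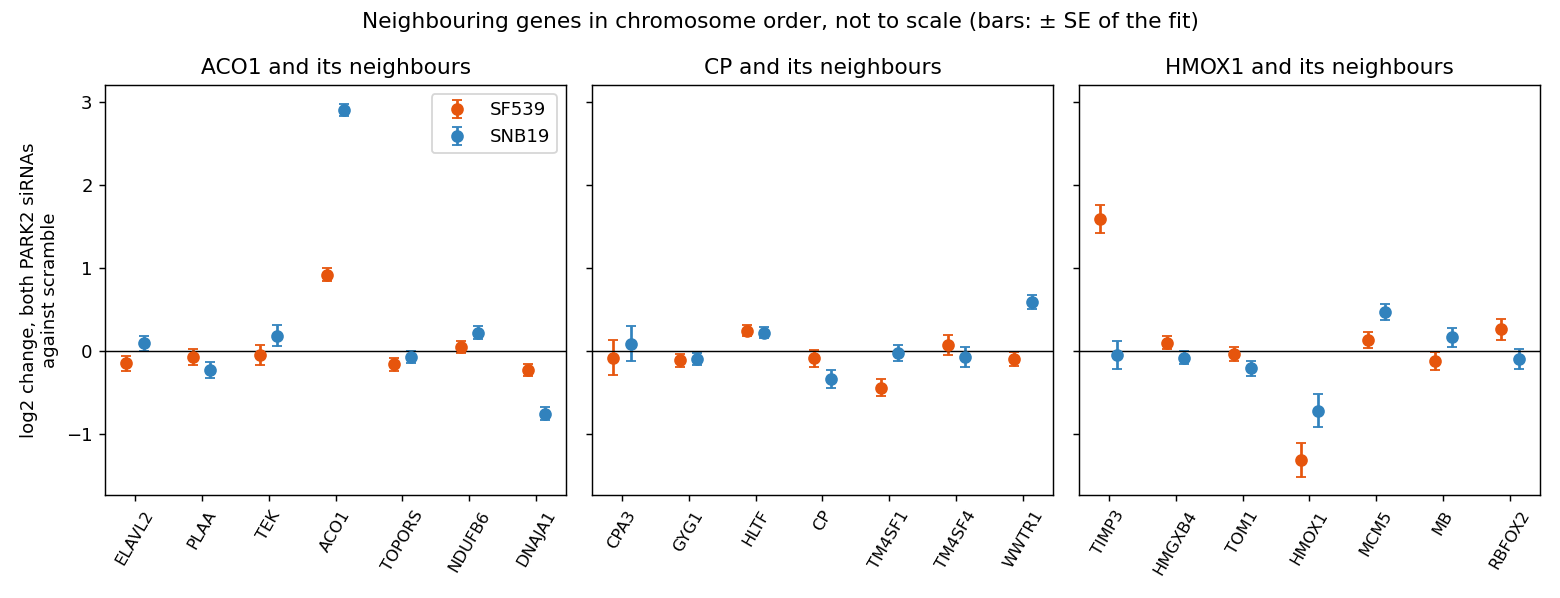
Log2 change with both PARK2 siRNAs against scramble (vertical axes, SF539 orange and SNB19 blue, bars show the standard error) for ACO1, CP and HMOX1 and the 3 measured protein-coding genes on each side, in chromosome order and not to scale. ACO1 itself changed by 2.90 in SNB19 and 0.92 in SF539, more than any of its neighbours shown, and was chosen with its change known.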

How the data were processed

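The values, deposited by the authors as log2 expression per probe set for each of the 12 arrays, were used as given. Per the submitters' processing notes the software was Partek, while background correction, normalization and summary over probes were not given in the sources used. The platform annotation paired 14038 of 16376 probe sets with 1 gene, 792 with several and 1546 with none, and the symbols of 14028 were matched by Entrez identifier to RefSeq (GRCh38.p14), whose coordinates place genes only. Each of 8545 genes was represented by its brightest probe set.

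All 12 arrays entered 1 linear model with the 6 groups, in limma 3.58.1 in R 4.3.3 (lmFit, eBayes, two-sided, with 6 residual and 3.65 prior degrees of freedom, Benjamini-Hochberg over all genes, threshold 0.05), which was tested on simulated data. Errors of changes are standard errors of the fit. The PARK2 effect of a line is the mean of both siRNAs minus scramble. Array medians ran from 5.94 to 6.14, and replicates correlated across probe sets with r from 0.991 to 0.998, lowest for SF539 siRNA2. Values carry no detection call, and precision is limited by having 2 arrays in each group.

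The 3 genes, the lists and the tests were chosen with earlier results of these data known. Named are the 3 genes, up to 4 called genes per list by smallest p in each line's PARK2 comparison, up to 2 elsewhere, partners of the 3 genes, the 5 genes most like each and 3 neighbours per side. Deviations of equally numbered replicates correlated from -0.18 to 0.11 over 15 pairs of groups, with 1 over 0.1, so numbers were not taken to pair arrays. Alternatives were a replicate block, median centring, quantile normalization, the arrays of 1 line alone, the mean over a gene's probe sets, single probe sets, array weights, a trended robust prior, removal of the dimmest 40% of genes, and removal of each array in turn (the array left in that group is taken to vary as the other groups do). Leaving out both SF539 siRNA2 arrays was chosen after seeing the data. Plots used matplotlib 3.10.9.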

Additional observations from a re-analysis of the deposited data

Results flagged for a closer look

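Beside ACO1, CP and HMOX1, which were not tested, 24 of the 55 list genes and neighbours that the naming rule picked changed differently in the lines by the interaction term of the limma fit over all genes, the change in SF539 minus that in SNB19. The rule picked genes partly by their calls in this same comparison, so 24 of 55 is no rate to set against all genes. This comparison called 21 of the 103 listed genes, 14 positive and 7 negative, 20.4% against 19.1% of all genes, and the count was 41 and 34 without SF539 siRNA2 replicates 1 and 2. The differences of size above 1 were -4.14 for SERPINA3, 2.13 for CFB, 1.99 for CEBPD, 1.64 for ID2, 1.64 for C1R, 1.63 for the HMOX1 neighbour TIMP3, -1.17 for SERPINA1, 1.16 for SCO2 and -1.03 for GCLM. Iron and haem genes among them were STEAP1 (-0.64), BMP6 (0.90), BMP2 (0.76), ABCB6 (0.69), UROS (-0.51), BLVRB (0.87), PGRMC2 (0.34) and ISCU (0.33). The others were MT2A (0.44), GCLC (0.47), PGD (-0.69), IL6ST (-0.62), ABCC1 (0.57), and the neighbours DNAJA1 (0.53) and WWTR1 (-0.69). The group means of BMP2 in SNB19 and of CFB with siRNAs in SNB19 lay under the lower quartile, which limits their differences. BMP6 averaged 4.49 with scramble in SF539, near 4.02, the highest lower quartile, so background limits its difference too. In SNB19, TIMP3 averaged 7.57 with siRNA1 and 6.19 with siRNA2, against 6.93 with scramble, so its mean change there describes neither siRNA. CEBPD averaged 9.24 with siRNA1 and 8.22 with siRNA2 in SNB19, against 9.24 with scramble. The call of ID2 was lost under 9 alternatives, among them any SNB19 array left out (adjusted p up to 0.104), that of PGD without SNB19 scramble replicate 2 (adjusted p = 0.0563), and that of IL6ST with the mean of its probe sets (adjusted p = 0.59). The calls of UROS, PGRMC2, ISCU and MT2A were lost under 10 to 12 alternatives each, with arrays of either line left out among them (adjusted p up to 0.126, 0.221, 0.3 and 0.12), that of BMP2 without SNB19 scramble replicate 1 (adjusted p = 0.0504), and those of ABCB6, BMP6 and WWTR1 with the mean of their probe sets (adjusted p = 0.482, 0.0999 and 0.23).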

How the results depend on the processing

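The mean change over both siRNAs kept its sign under every alternative run for ACO1 in each line and for HMOX1 in SF539. Most alternatives could not have turned it. All siRNA arrays lay on the same side of both scramble arrays, so leaving out or weighting arrays could not reverse the sign. Each gene has 1 probe set, so averaging probe sets left the mean as it was. The block, the prior, the removal of dim genes and the fit of 1 line alone do not alter it either. Without each array in turn the mean change ran from 2.81 to 2.99 for ACO1 in SNB19, from 0.88 to 0.95 for ACO1 in SF539 and from -1.54 to -1.07 for HMOX1 in SF539. In SNB19 the mean for HMOX1, -0.78 to -0.65, averages siRNA changes of opposite sign and describes neither siRNA. The replicate block could not move the means, since every group holds an array of each replicate number. They stayed at 2.90 and 0.92 for ACO1 and -0.71 and -1.31 for HMOX1, in SNB19 and SF539. The block changed no count of listed genes by over 1.5 times (35 in SNB19 and 15 in SF539). Without each array CP changed by -0.40 to -0.27 in SNB19 and by -0.28 to 0.10 in SF539. The difference between lines ran from -2.07 to -1.89 for ACO1 and from 0.056 to 0.43 for CP. Median centring, which moved the median of all genes to 0.12 in SNB19 and to -0.18 in the difference between lines, gave SNB19 changes of 3.03 for ACO1, -0.20 for CP and -0.59 for HMOX1, differences between lines of -2.15 for ACO1 and 0.075 for CP, -0.15 for ACO1 between the SNB19 siRNAs, and SF539 minus SNB19 levels with scramble of 1.62 for ACO1 and 4.33 for HMOX1. Quantile normalization gave -2.09 for the ACO1 difference between lines and 1.59 for its level difference with scramble. With both SF539 siRNA2 arrays left out, what remains is the siRNA1 change in SF539, 0.83 for ACO1.

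Counts of listed genes called ran, without each array, from 22 to 51 in SNB19, 8 to 35 in SF539, 15 to 41 for the difference between lines, 2 to 23 and 0 to 47 between the siRNAs in SNB19 and SF539, and 43 to 64 between lines with scramble. Array weights gave 52 in SNB19, 26 between its siRNAs and 1 between those of SF539. The arrays of 1 line alone gave 5 for SF539 against scramble, 22 between the SNB19 siRNAs and 0 between those of SF539 (limma, 24 at an unadjusted p under 0.05). Between the SF539 siRNAs the count was 9 with dim genes left out, 2 with the mean of probe sets and 11 with a trended robust prior. For 109 changes of named genes, 1868 of 2126 alternative values kept direction and call, 257 lost the call, and 1 turned, the PGRMC2 difference between lines, which was -0.034 with the mean of its probe sets. Why these values moved was not tested. Probe sets near the lower quartile, such as that of CP in SF539, carry little signal over background.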
